A study of Mus musculus with 10 samples.

Results

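Mcpt1, Mcpt2, Mcpt4, Cma1, Cpa3, Tpsb2, Kit and Fcer1a are 8 genes known for their use in mast cells: 6 proteases and 2 surface receptors. Each had 1 probe set among the 22180 genes named on the arrays, and these 8 probe sets were followed over 10 arrays of mouse intestinal cells. The set was chosen by its first gene: Mcpt1 was selected on its log2 intensities, which gave the smallest p-value in the comparison of Flattop with Lgr5-high arrays. Levels of the 8 genes in that comparison are therefore given as a description, without a test.

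Flattop is known from planar cell polarity and ciliated cells, and the study asked how crypt cells that express it differ from Lgr5-high stem cells. The 4 Flattop arrays came from crypt cells of mice carrying FltpT2AiCre and Gt(ROSA)26mTmG on a mixed C57BL/6J, CD1 and 129/SvJ background. The 6 Lgr5-high arrays came from stem cells sorted for high Lgr5 and GFP in C57BL/6J mice with the Lgr5-EGFP-IRES-creERT2 allele. All mice were 3 to 6 months old, and all cells were sorted by flow cytometry. The Cre of the first group is tied to the Flattop gene, and a reporter switched by Cre also stays on in the descendants of a labelled cell. The 2 groups differ in genotype and strain as well as in cell type, and the 3 cannot be told apart. Separate animals are not named for the replicates in the labels, and p-values therefore rest on the spread of these samples alone, which may be technical.

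Mast cells are tissue-resident granulocytes that store proteases bound to serglycin proteoglycan and release them when antigen binds IgE on their surface. In the mouse gut, mucosal mast cells lie within and just under the epithelium and are known for the chymases Mcpt1 and Mcpt2. Connective tissue mast cells are known for the chymases Mcpt4 and Cma1, the tryptase Tpsb2 and the carboxypeptidase Cpa3. Mast cells depend on Kit, the receptor for stem cell factor, and bind IgE through Fcer1a. Kit is also made by other gut cells, among them the interstitial cells of Cajal.

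The promoters of Mcpt1 and Mcpt4 are shown because these chymases are close relatives on chromosome 14 of which Mcpt1 differed by 5.08 and Mcpt4 by 0.33 between the groups on the log2 scale. The sequences are from RefSeq on build GRCm38.p6 and give the 250 bases before the gene's start, 5′ to 3′ on the gene's strand. Capitals mark a GATA word, a RUNX word and a TATA word, in that order. Mcpt1 lies on the plus strand (chr14:56017714-56017963) and Mcpt4 on the minus strand (chr14:56062311-56062560).
Mcpt1: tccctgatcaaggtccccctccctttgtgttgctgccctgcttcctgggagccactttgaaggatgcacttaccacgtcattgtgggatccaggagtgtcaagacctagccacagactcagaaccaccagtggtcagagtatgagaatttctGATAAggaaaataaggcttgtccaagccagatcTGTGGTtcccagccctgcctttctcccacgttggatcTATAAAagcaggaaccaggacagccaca
Mcpt4: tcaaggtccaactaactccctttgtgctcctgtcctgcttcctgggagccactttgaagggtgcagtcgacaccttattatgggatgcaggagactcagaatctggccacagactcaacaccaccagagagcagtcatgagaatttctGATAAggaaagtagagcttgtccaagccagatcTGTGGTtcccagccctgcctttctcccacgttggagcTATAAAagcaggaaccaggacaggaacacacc
The aligned windows were identical at 209 of 258 columns (81.0%, gaps counted as differences). The window of Mcpt1 matched those of Mcpt9, Mcpt8 and Cma1 at 45.7%, 51.2% and 48.5% of columns. Windows of Cpa3, Fcer1a and Kit, which are not chymases, matched it at 45.1%, 43.6% and 42.4%. In Mcpt1 the GATA word (GATAA) began 98 bases before the start, the RUNX word 65 bases before and the TATA word 28 bases before. In Mcpt4 they began 102, 69 and 32 bases before the start, so their spacing was the same. GATA factors, RUNX factors and MITF are transcription factors known to act in mast cells. The RUNX word was TGTGGT and was searched on both strands, as was the GATA word. The TATA word was TATAAA, searched on the gene's strand. The MITF word was CACGTG, which reads the same on both strands. No word overlapped another in these windows. RefSeq promoters were matched for 6 of the 8 genes, all but Mcpt2 and Tpsb2. A GATA word was present in 5 of the 6, all but Kit, where 22.6% of 32851 RefSeq promoter windows held one. A RUNX word was present in 4 (14% of all windows) and a TATA word in 4 (7.59%), in both cases Mcpt1, Mcpt4, Cpa3 and Fcer1a. The MITF word was in 0 of 6 (6.02% of all windows). With a broader set of 2 MITF words, searched first, 1 of 6 windows held one, that of Fcer1a (17.6% of all windows). These matches are a description of letters in the window, and Mcpt1 and Mcpt4 shared all that were found.

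Epithelial genes were high in both groups: the mean of Epcam, Cdh1, Krt8, Krt18, Vil1 and Cldn7 lay between 10.20 and 10.83 in the Flattop and between 10.11 and 10.54 in the Lgr5-high arrays (log2 intensity). Lgr5 was at 8.37 ± 1.42 (SD, n = 4) in the Flattop group, against 9.47 ± 0.33 (SD, n = 6) in Lgr5-high arrays (limma adjusted p = 0.533). Cfap126, which encodes Flattop, was at 5.42 ± 0.74 (SD, n = 4) and 4.996 ± 0.349 (SD, n = 6), with a limma adjusted p of 0.678, so neither gene passed as a check of the labels. The difference of Cfap126 was -0.44 within title numbers 1 to 8 and 1.295 within 38 to 46, opposite in direction, and that of Lgr5 was -0.16 and -2.04. Over all probe sets the nearest array to Lgr5-high replicate 1 was Flattop replicate 2 (r = 0.931), and without that Lgr5-high array the Mcpt1 difference below was 5.02. In T cell and intraepithelial lymphocyte genes, 10 of 12 passed the limma test as higher in Flattop, against 0.902% of all genes. The 12-gene mean was 8.07, 8.60, 10.42 and 9.67 in Flattop replicates 1 to 4 and 4.45 to 4.92 in the Lgr5-high arrays. Any gene that separates the groups shares the step of this lymphocyte mean between them. Within the Flattop arrays Mcpt2 ran in the reverse order of the mean, and both orders also split by title number range. The part of lymphocytes in the member differences below was not tested. In samples that may hold several cell types, fewer cells of a type and less RNA per cell cannot be told apart.

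The mucosal chymases Mcpt1 and Mcpt2 and the receptor Kit were higher in every Flattop array than in any Lgr5-high array, and the other 5 genes overlapped between the groups. Of all genes, 2.98% did not overlap and 0.915% passed the limma test in either direction. Of the 8 genes, 3 did not overlap and the same 3 were among those called. Since Mcpt1 was the reason for the choice, nothing is read from these counts.

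Mcpt1, a chymase of mucosal mast cells known to cleave the tight junction protein occludin, read 8.52, 8.23, 8.20 and 8.57 in Flattop replicates 1 to 4. The 6 Lgr5-high arrays ran from 2.82 to 3.88 with a median of 3.34. All Flattop arrays were high and close to each other, and the lowest of them lay 4.32 above the highest Lgr5-high array. The group means were 8.38 ± 0.19 (SD, n = 4) and 3.31 ± 0.37 (SD, n = 6), a difference of 5.08 on the log2 scale (SE 0.20), or 33.7-fold. In 5 of 6 Lgr5-high arrays the value lay under the array's lower quartile of all probe sets (3.59 to 3.84), so the size of the fold depends on a level near the bottom of the scale. The difference was 5.15 among the arrays with title numbers 1 to 8 and 5.0 among those with numbers 38 to 46. The labels do not say whether these number ranges mark batches.

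Mcpt2, the second chymase of mucosal mast cells, read 8.15, 6.73, 5.26 and 6.39 in Flattop replicates 1 to 4. In the Lgr5-high arrays it ran from 3.08 to 3.80 with a median of 3.44. The groups did not overlap, but the Flattop arrays were spread widely, with replicate 1 high and replicate 3 low. The means were 6.63 ± 1.19 (SD, n = 4) and 3.41 ± 0.25 (SD, n = 6), and the difference was 3.22 (SE 0.43). All 6 Lgr5-high values were under the lower quartile of their array. The difference was 4.07 within title numbers 1 to 8 and 2.365 within 38 to 46, and 2.71 without Flattop replicate 1.

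Kit, the stem cell factor receptor, was well above the array median in all 10 arrays. It read 8.28, 8.57, 8.44 and 8.41 in Flattop replicates 1 to 4, and 7.06 to 7.84 with a median of 7.41 in the Lgr5-high arrays. The groups lay 0.44 apart at their nearest values. The means were 8.42 ± 0.12 (SD, n = 4) and 7.42 ± 0.31 (SD, n = 6), and the difference was 1.002 (SE 0.171). It was 1.26 within title numbers 1 to 8 and 0.75 within 38 to 46. Of the genes of interstitial cells of Cajal, the channel Ano1 differed by 0.12 and the transcription factor Etv1 by 0.07, and 0 of 3 passed in limma (0.915% of all genes did; 0 at an unadjusted p under 0.05).

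The chymases of connective tissue mast cells were near the bottom of the scale in both groups. Mcpt4 read 3.94, 3.53, 2.96 and 2.72 in Flattop replicates 1 to 4 and 2.71 to 3.19 in Lgr5-high arrays, with a median of 2.99. Flattop replicates 1 and 2 lay above every Lgr5-high array and replicates 3 and 4 lay among them. The difference was 0.33 (SE 0.23), 0.82 within title numbers 1 to 8 and -0.16 within 38 to 46. Cma1, the mouse homologue of human chymase, read 3.37, 3.39, 3.69 and 3.07 in Flattop and 3.22 to 3.76 in Lgr5-high arrays, with a median of 3.30. The difference was -0.0038 (SE 0.155), and the groups overlapped, with Flattop replicate 4 below the lowest Lgr5-high array.

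Cpa3, the carboxypeptidase stored with these chymases, read 4.27, 3.99, 3.56 and 3.91 in Flattop replicates 1 to 4. Lgr5-high arrays ran from 3.38 to 3.98 with a median of 3.50, and the difference was 0.34 (SE 0.17). Flattop replicates 1 and 2 were the arrays above all Lgr5-high arrays, and the difference was 0.665 within title numbers 1 to 8 and 0.012 within 38 to 46. The tryptase Tpsb2 read 3.92, 4.12, 4.28 and 4.40 in Flattop and 4.07 to 4.35 in Lgr5-high arrays, with a median of 4.19 and a difference of -0.02 (SE 0.12). Fcer1a, the IgE-binding chain of the high-affinity receptor, read 3.31, 3.61, 2.92 and 3.55 in Flattop and 2.86 to 3.22 in Lgr5-high arrays, with a median of 3.03. Its Flattop replicates 1, 2 and 4 were above all Lgr5-high arrays and replicate 3 was among them, and the difference was 0.30 (SE 0.16). All 4 Flattop values of Fcer1a were still under the lower quartile of their array.

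**Figure D1:**
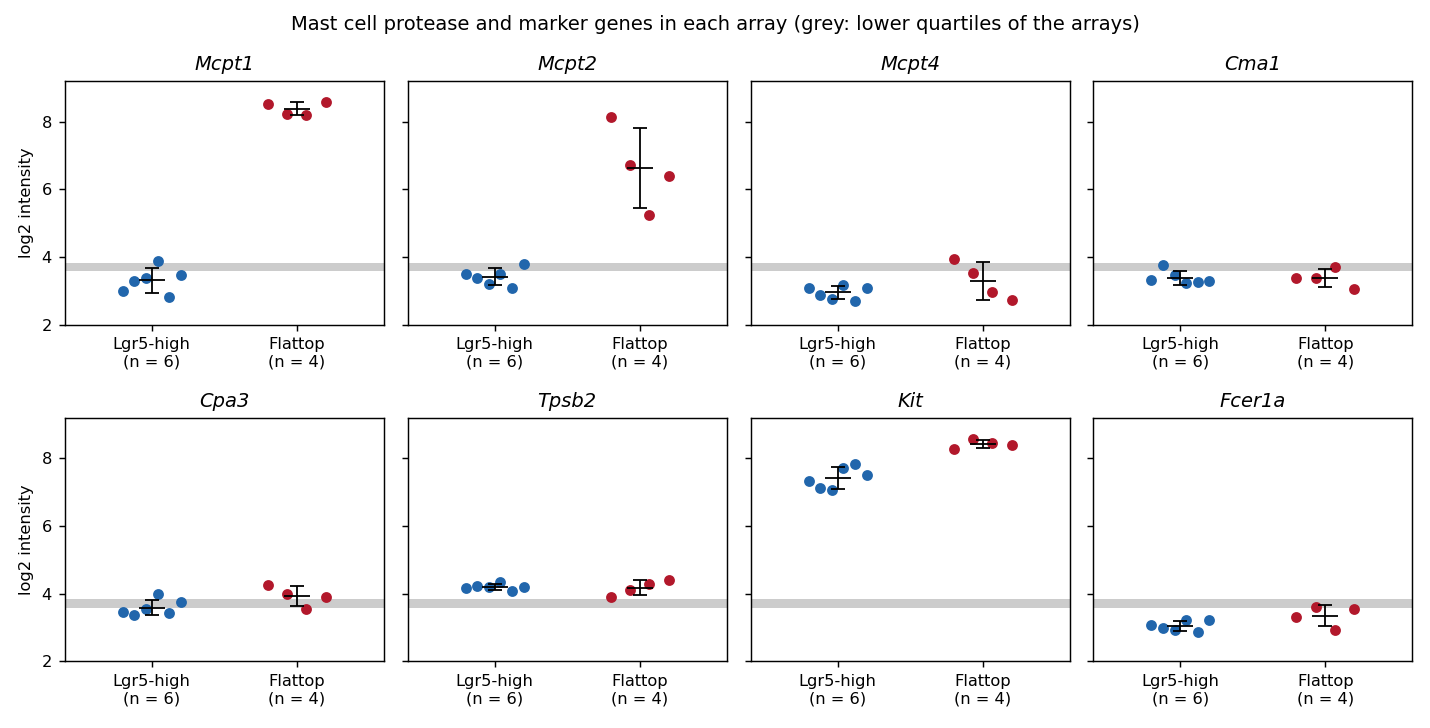
Log2 intensity of each of the 8 genes in each array, with 6 Lgr5-high arrays in blue and 4 Flattop arrays in red; black marks give the mean and SD, and the grey band spans the lower quartiles of the 10 arrays (3.59 to 3.84). Mcpt1, Mcpt2 and Kit separate the groups, and the other 5 genes are low in both. Tpsb2 lies above the band in all arrays, and the Lgr5-high values of Mcpt4 and Fcer1a lie below it.

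Mcpt4, Cma1, Cpa3, Tpsb2 and Fcer1a lay under the median of their array in all 10 arrays (medians 4.56 to 4.77), and Mcpt1 and Mcpt2 did so in all 6 Lgr5-high arrays. Differences between the groups ran from -0.02 to 5.08 among the 8 genes, and they are called here by the genes that differed most, Mcpt1, Mcpt2 and Kit. Kit stood apart in level: it read 7.06 to 7.84 in the Lgr5-high arrays, where the other 7 genes lay under the array median. The source of Kit in either group was not tested. Without detection calls, a low value does not show whether a gene was absent.

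Of 20 other measured genes of the mast cell programme, 2 rose in Flattop, Fcer1g and Srgn, 0 fell and 18 did not pass limma with Benjamini-Hochberg adjustment over all genes (0.902% of all genes passed as higher; at an unadjusted p under 0.05, 3 of the 20 were higher and 0 lower, beside 5.98% and 3.8% of all genes). The median difference of the 20 was -0.003 beside -0.06 over all genes, and the 18 ran from -0.98 to 0.65. The 8 genes Ms4a2, Hdc, Tpsab1, Gata2, Slc18a2, Mrgprb1, Mrgprb2 and Tal1, picked out after their values were seen, lay under the array median in every array. They include the receptor chain Ms4a2, the histamine-forming enzyme Hdc, the tryptase Tpsab1 and the transcription factor Gata2. Ltc4s, Alox5, Alox5ap, Lat2, Cd63 and Cyp11a1, also named after their values were seen, lay above the array median in every array. The rest of the 20 lay on both sides of it. The share of all genes under the median in every array was not computed, so nothing is read from the 8. Ms4a2 averaged 4.31 in both groups and differed by -0.0021 (SE 0.102), and Hdc differed by -0.03 (SE 0.13).

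Fcer1g, the signalling chain shared by IgE, IgG and natural killer receptors, read 6.78, 8.47, 10.49 and 8.81 in Flattop replicates 1 to 4 and 4.54 to 5.47 in the Lgr5-high arrays. It rose by 3.62 (SE 0.55, limma adjusted p = 0.0107), with the groups apart in all arrays. It missed the threshold within title numbers 1 to 8 (adjusted p = 0.189) and within 38 to 46 (0.0518). Srgn, the core protein of the granule proteoglycan of mast cells and cytotoxic lymphocytes, read 5.995, 4.72, 8.45 and 7.19 in Flattop and 3.34 to 4.36 in the Lgr5-high arrays. It rose by 2.91 (SE 0.58, limma adjusted p = 0.0481), a call that ended on leaving out each single array except Flattop replicate 2 (adjusted p 0.0544 to 0.141) and within title numbers 1 to 8 (0.454). Both genes are also made by lymphocytes, whose part in these values was not tested. Both were highest in Flattop replicate 3, as was the 12-gene lymphocyte mean. Srgn was lowest in replicate 2, whereas Fcer1g and the lymphocyte mean were lowest in replicate 1. The 5-lipoxygenase partner Alox5ap was at -0.98 (SE 0.74, limma adjusted p = 0.694; 0.84 within title numbers 1 to 8 and -2.795 within 38 to 46) and the adaptor Lat2 at 0.65 (SE 0.22, limma adjusted p = 0.325).

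**Figure D2:**
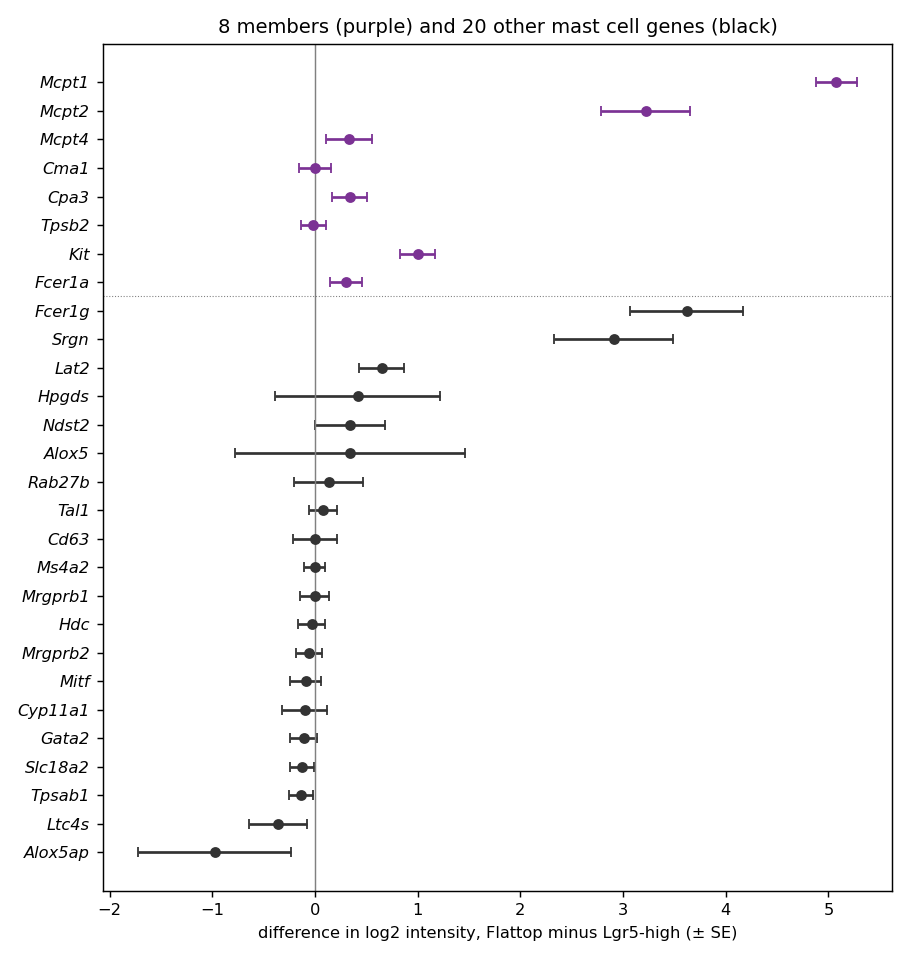
Difference in log2 intensity, Flattop minus Lgr5-high, for the 8 genes (purple) and 20 other mast cell genes (black); points are the fitted differences and bars their SE. Mcpt1 at 5.08 and Mcpt2 at 3.22 stand beside Fcer1g at 3.62 and Srgn at 2.91. Ms4a2, Hdc, Cma1 and Tpsb2 lie between -0.03 and 0. The 18 black genes not called in limma run from -0.98 (Alox5ap) to 0.65 (Lat2).

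Across the 4 Flattop arrays the members did not vary alike. Mcpt1 and Kit had an SD of 0.19 and 0.12, against 1.19 for Mcpt2, 1.52 for Fcer1g and 1.601 for Srgn. Mcpt1 was selected by a p-value that is smaller when arrays of a group vary little, so nothing is read from its low SD. Mcpt2 fell in the order replicates 1, 2, 4 and 3, the reverse of the order of the lymphocyte mean (10.42 in replicate 3, 9.67 in 4, 8.60 in 2 and 8.07 in 1). Fcer1g had the same order as the lymphocyte mean, and Srgn did not, with its lowest value in replicate 2. The 4 arrays share their group, and these orders are given as a description. Replicates 1 and 2 have title numbers within 1 to 8, and replicates 3 and 4 within 38 to 46. The orders of Mcpt2 and of the lymphocyte mean both split along these ranges.

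**Figure D3:**
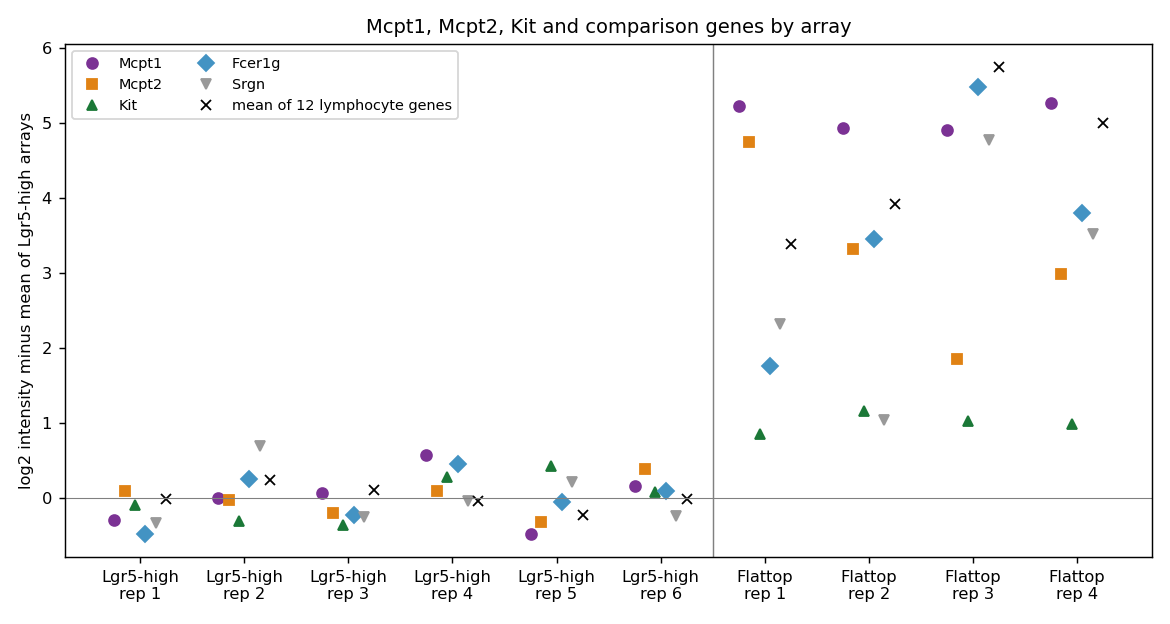
Log2 intensity of Mcpt1, Mcpt2, Kit, Fcer1g and Srgn and the mean of 12 lymphocyte genes in each of the 10 arrays, each after subtraction of its own mean over the 6 Lgr5-high arrays; x positions within an array are offset for sight. In the Flattop arrays Mcpt1, whose choice favoured a small spread, and Kit stay level. Mcpt2 is lowest in replicate 3, where Fcer1g, Srgn and the lymphocyte mean are highest.

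The group difference was also set against the title number range. Mcpt1 was selected on the same log2 values, by a p-value that is smaller when arrays of a group vary little, so its change between the ranges is given as a description. In a limma model with group, range and their product, 0 of the other 7 genes passed (adjusted p 0.541 to 0.833) and 2 of 22180 genes did (0.00902%). At an unadjusted p under 0.05 there were 2 of the 7, Mcpt4 and Mcpt2, beside 7.39% of all genes. The change in the difference from numbers 1 to 8 to numbers 38 to 46 was -0.98 (SE 0.30) for Mcpt4, -1.71 (SE 0.64) for Mcpt2 and -0.15 (SE 0.43) for Mcpt1.

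The genes whose profile over the 10 arrays was most like that of Mcpt1, by the root mean square difference of log2 values after each gene's mean was subtracted, were Clec2h (0.44), Xcl1 (0.73), Alpi (0.73), Cd8a (0.73), Cd7 (0.75), Ctsw (0.75), Maf (0.77) and Sis (0.78). They include lymphocyte genes (Xcl1, Cd8a, Cd7 and the protease Ctsw) and the brush border enzymes Alpi and Sis. The C-type lectin gene Clec2h read 10.002, 10.06, 9.14 and 10.49 in Flattop replicates 1 to 4 and 4.45 to 5.41 in the Lgr5-high arrays. Mcpt2 was at 1.11 from Mcpt1, and 37 genes were closer. Kit was at 2.03, Cpa3 at 2.33, Fcer1a at 2.35, Mcpt4 at 2.355, Tpsb2 at 2.51 and Cma1 at 2.52. The measure is set mainly by the group difference through which Mcpt1 was chosen.

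Mcpt1, Mcpt2, Mcpt4 and Cma1 belong to a run of chymase and granzyme genes on chromosome 14. Of 10 other measured genes of the run, 1 rose, Gzmb, and 0 fell (0.902% of all genes rose; at an unadjusted limma p under 0.05, 2 were higher and 1 lower, beside 5.98% and 3.8% of all genes), with a median difference of -0.11 beside -0.06 over all genes. Gzmb, the granzyme of cytotoxic lymphocytes at the far end of the run, read 7.74, 8.49, 10.60 and 9.32 in Flattop replicates 1 to 4 and 3.75 to 4.40 in the Lgr5-high arrays. It rose by 5.003 (SE 0.44, limma adjusted p = 0.000319), and its Flattop order was that of the lymphocyte mean. Mcpt9, which lies between Mcpt2 and Mcpt4, differed by -0.09, the basophil protease Mcpt8 by -0.11 and the neutrophil protease Ctsg by -0.11, genes named after their values were seen. Gzmc was at 0.56 (limma adjusted p = 0.331), Gzmn at -0.395 (0.49) and Gzmg at -0.43 (0.596). Chymases of this run are near relatives and the probe sequences were not examined, so which copy a probe set measured is uncertain. Among 8 other genes of the tryptase locus 0 passed in limma (0.915% of all genes did; 1 was higher at an unadjusted p under 0.05, beside 5.98% of all genes), and the largest difference was that of Tpsg1 (0.67, limma adjusted p = 0.30).

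**Figure D4:**
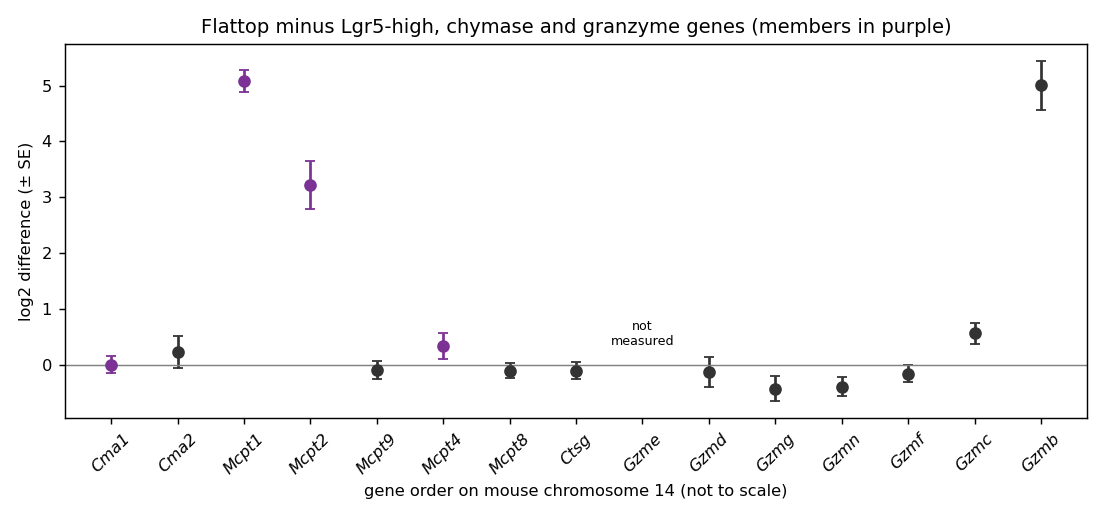
Difference in log2 intensity, Flattop minus Lgr5-high, with SE, for chymase and granzyme genes in their order on chromosome 14 (not to scale; members in purple). Mcpt1 (5.08), Mcpt2 (3.22) and Gzmb (5.003) stand apart. The measured genes that lie between Mcpt2 and Gzmb run from -0.43 (Gzmg) to 0.56 (Gzmc).

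Among 20 genes for signals that feed or recruit mast cells, the integrin chain Itgb7 differed most, by 1.37, and the median difference was -0.008. The Itgb7 difference was 0.50 within title numbers 1 to 8 and 2.24 within 38 to 46. In limma 0 of the 20 were called, where 0.915% of all genes were, and nothing is read from this 0. At an unadjusted p under 0.05, 2 were higher and 0 lower, beside 5.98% and 3.8% of all genes. Itgb7, which pairs with Itga4 to bring mast cell progenitors and lymphocytes to the gut, had a limma adjusted p of 0.427, and Itga4 was at 0.95 (0.28). Kitl, the ligand of Kit, was at 5.53 ± 1.30 (SD, n = 4) and 5.39 ± 0.83 (SD, n = 6), with a difference of 0.15 (SE 0.58). This joins opposite directions, 1.46 within title numbers 1 to 8 and -1.17 within 38 to 46. Of 14 known protease targets and inhibitors 0 were called in limma (0.915% of all genes), with a median of 0.18 beside -0.06 over all genes. At an unadjusted p under 0.05, 4 of the 14 were higher and 0 lower, beside 5.98% and 3.8% of all genes. Angiotensinogen (Agt), a source of chymase substrate, was at 0.60 (SE 0.165, limma adjusted p = 0.183), the protease inhibitor Serpinb1a at 1.05 (SE 0.35, 0.314) and the thrombin receptor F2r at 0.89 (SE 0.39, 0.488). The F2r difference was 0.03 within title numbers 1 to 8 and 1.76 within 38 to 46. Occludin (Ocln) was at 0.13 (limma adjusted p = 0.922), a gene named as the known target of Mcpt1.

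Markers of other myeloid cells, stroma and vessels stood beside these values as follows. By limma none of 7 basophil, 6 eosinophil, 7 neutrophil, 8 macrophage and monocyte, 4 dendritic, 5 B and plasma, 5 fibroblast, 4 endothelial and 7 group 2 innate lymphoid genes was called, where 0.915% of all genes were, and nothing is read from a count of 0 in lists this short. At an unadjusted p under 0.05, 1 eosinophil, 1 B and plasma and 1 innate lymphoid gene were higher, and 2 macrophage, 1 dendritic and 1 endothelial gene were lower, beside 5.98% of all genes higher and 3.8% lower. The means of the basophil list lay between 4.81 and 5.20 in Flattop and between 4.87 and 5.10 in Lgr5-high arrays. The innate lymphoid gene with the smallest p was Il7r at 1.54 (limma adjusted p = 0.089), a receptor also carried by T cells.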

How the data were processed

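Amplified RNA of sorted cells was hybridised to Affymetrix MoGene 2.0 ST arrays. The authors deposited log2 intensities, 1 value per probe set and array, made by robust multi-array averaging (RMA) in oligo 1.38.0, per the submitters' processing notes. Which build they used is not given in the sources used here. Values ran from 2.01 to 14.1. Of 41345 probe sets, 23521 had 1 symbol, 1814 had several and 16010 were not listed in the platform annotation. Entrez numbers matched RefSeq (GRCm38.p6) for 23328, and 0 symbols changed. For each of 22180 genes the brightest probe set on average was kept (1082 had several). Groups were compared with limma 3.58.1 in R 4.3.3 (lmFit, eBayes, two-sided, Benjamini-Hochberg over all genes, threshold 0.05), and the method was tested on simulated data. The precision is limited by the number of arrays. Without detection calls, no signal over background could be given.

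The members, lists and tests were chosen with earlier results of these data known. Named genes were the 8 members, up to 4 genes of smallest p in each mast cell, locus, signal and target list, up to 3 in each marker list of another cell type, all called list genes, and the 8 genes most like Mcpt1 (predicted, small RNA, receptor and immunoglobulin segment genes left out). Others are said to have been named after their values were seen, apart from Lgr5, Cfap126, Kitl and Ocln, named for their role. Alternatives were a second quantile normalisation, median centring, leaving out the dimmest genes (below percentile 40 of mean intensity), a robust prior with trend, array weights, blocks for replicate number and title number range, each range alone, each array left out and averaging of probe sets per gene. The motif search was not planned and its words were chosen after seeing the data. The GATA and MITF words were narrowed, to shorten how they are printed, after counts with broader sets were known. Promoter windows were aligned with Biopython 1.88 in Python 3.11.15. Plots used matplotlib 3.10.9.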

Additional observations from a re-analysis of the deposited data

Results flagged for a closer look

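In 150 groups of values (75 genes in each of 2 groups), 7 held an array far from the others by Dixon's criterion, where chance gives about 1 in 20. No value of the 8 genes was among them. The tryptase Tpsab1 was at 3.95 in Lgr5-high replicate 6, next to 3.67. The monocyte receptor Cd14 was at 3.47 in Lgr5-high replicate 2, next to 4.07. The fibroblast proteoglycan Dcn was at 4.29 in Flattop replicate 2, next to 3.50. The endothelial cadherin Cdh5 was at 5.33 in Lgr5-high replicate 2 and 3.99 in Flattop replicate 2. The keratin Krt8 was at 9.50 in Lgr5-high replicate 6 and 10.27 in Flattop replicate 3.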

How the results depend on the processing

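The Mcpt1 difference lay between 4.98 and 5.19 and that of Kit between 0.75 and 1.26 over 20 alternatives each. Within title numbers 1 to 8 the differences of Mcpt2, Mcpt4, Cpa3 and Tpsb2 were 4.07, 0.82, 0.665 and -0.18, and within 38 to 46 they were 2.365, -0.16, 0.012 and 0.14. Counts of called genes were 77 and 85 in these ranges and 123 to 215 (main count 203) with each array left out. The 2 other mast cell genes called became 1 after a second quantile normalisation, 0 within numbers 1 to 8, 1 within 38 to 46, and 1 to 2 with each array left out. Srgn passed in 8 of 20 alternatives, Fcer1g in 17 and Gzmb in 20. With a trended and robust prior 4 genes passed the interaction with title number range. With replicate number as a block (replicates 1 to 4), 57 genes and 0 other mast cell genes passed. Same-numbered arrays correlated at 0.297, -0.206, -0.01 and 0.029 in their deviations from group means. Of these arrays, only Flattop replicate 1 correlated best with its own number. The labels do not say what same-numbered arrays share, and these correlations cannot show it. With the words searched first, an alternative added after seeing the data, a GATA word was in 5 of 6 promoters (26.5% of all windows). That was the same count, and a MITF word was in 1 in place of 0. The cause of these changes was not tested. The number of arrays and the low signal of 5 of the 8 genes limit what can be seen.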
